A study of Mus musculus with 6 samples.

Results

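Adrenergic receptors are the cell-surface receptors for noradrenaline and adrenaline, and 6 of their genes were examined in the pre-limbic cortex (PLc), a medial part of the mouse prefrontal cortex. The members were taken by gene symbol from the 37620 genes of the table, namely *Adra1a*, *Adra1b*, *Adra1d*, *Adra2a*, *Adra2c* and *Adrb1*, and all 6 were found. RNA Seq was performed on PLc from 3 mice given saline (mice 1, 6 and 10) and 3 mice given ketamine (mice 3, 5 and 9), each sequenced as its own library. All were C57Bl/6 mice with an age of 9 weeks in the labels. Ketamine, an antagonist of the NMDA receptor, was injected i.p. at 30 mg/kg once daily for 5 days, the other mice received saline by the same route and schedule, and tissue was taken 2 days after the last injection.

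Noradrenaline reaches the prefrontal cortex through the axons of the locus coeruleus, a brainstem nucleus. The α1 receptors (*Adra1a*, *Adra1b*, *Adra1d*) couple to Gq and raise intracellular calcium, the α2 receptors (*Adra2a*, *Adra2c*) couple to Gi/o and lower cAMP, and the β1 receptor (*Adrb1*) couples to Gs and raises cAMP. In prefrontal cortex the α2A receptor is known for its part in working memory, where its action opposes that of α1 and β1 receptors at high noradrenaline.

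Both α2 genes were higher in ketamine mice. Expression of *Adra2a* was 2.16 times that of saline mice by group means, and that of *Adra2c* 1.502 times. For these 2 genes every ketamine mouse lay above every saline mouse, as it did for 5.69% of all 16127 genes tested. The α1 gene *Adra1d* was at 0.480 of its saline mean, with every ketamine mouse below every saline mouse, as in 4.66% of genes. *Adra1b* was at 0.533, but 1 saline mouse lay within the ketamine range. *Adra1a* and *Adrb1* overlapped between the groups, at 0.973 and 0.864. No member passed the test of limma over all genes (0% of genes did), and *Adra2a* passed that of DESeq2 (1.13% of genes). The p-values measure the spread between these mice.

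The upstream sequences of the α2 pair are shown because these genes were higher together. Of the 6 members, 4 had an entry in the promoter table of RefSeq (build GRCm38.p6), and the 250 bases before the annotated start are printed 5′ to 3′. Capitals mark CACGTG, an E-box. The *Adra2a* window is chr19:54045009-54045258 on the plus strand and the *Adra2c* window chr5:35278316-35278565 on the plus strand.
Adra2a: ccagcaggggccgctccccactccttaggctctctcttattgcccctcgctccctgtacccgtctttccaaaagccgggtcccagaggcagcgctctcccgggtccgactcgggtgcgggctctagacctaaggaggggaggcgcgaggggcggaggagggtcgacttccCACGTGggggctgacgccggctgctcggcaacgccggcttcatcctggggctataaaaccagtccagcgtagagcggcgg
Adra2c: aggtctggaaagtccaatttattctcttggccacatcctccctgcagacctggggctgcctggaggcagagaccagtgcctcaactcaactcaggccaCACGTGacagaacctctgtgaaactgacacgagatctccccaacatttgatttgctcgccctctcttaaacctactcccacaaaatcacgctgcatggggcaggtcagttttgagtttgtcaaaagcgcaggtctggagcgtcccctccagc
CACGTG is its own reverse complement. It occurred once in each of these windows and in none of the other 3 windows, which belong to *Adra1b* (2 annotated starts) and *Adrb1*. It was present in 6.02% of all 32851 windows of this length. Searched on both strands, TGACG, the short form of the cAMP response element, occurred once in *Adra2a* and once in *Adrb1* (17.8% of all windows), and the whole element TGACGTCA in none of the 5 windows (1.55%). The GC box GGGCGG occurred once in *Adra2a*, in *Adrb1* and at 1 start of *Adra1b* (32.7%), and TATAAA once, in *Adra2a* (12.4%). The windows differed in base composition, with a GC content of 67.6% for *Adra2a* and 53.6% for *Adra2c*, beside a median of 52.4% over all windows. These matches are descriptions of the sequence, and the motifs were chosen after the sequences had been seen.

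Levels are given as normalized counts, in which the reads of a gene are scaled by the size factor of the library. Between 26273436 and 32643726 reads were recovered per library, and all 6 members passed the filter, a mean of 10 normalized counts or more. Of the 16127 genes tested, limma called 0 (0% of genes, adjusted p by the method of Benjamini and Hochberg, threshold 0.05), with 937 at an unadjusted p under 0.05. On the recovered reads edgeR also called 0, with 1007 at an unadjusted p under 0.05, and DESeq2, the package of the study's methods, called 182 (1.13% of genes). All 10 markers of cortical excitatory neurons were detected, with *Slc17a7*, the vesicular glutamate transporter of cortex, between 22152 and 49417 normalized counts. Several libraries stood apart by marker lists. The summed striatal markers were at 61231 and 30443 normalized counts in ketamine mice 3 and 5, against between 6870 and 8667 in saline mice and 8808 in ketamine mouse 9. Olfactory bulb markers were highest in ketamine mouse 9, at 22490. They were at 7645 and 4867 in ketamine mice 3 and 5, against between 2069 and 2743 in saline mice. Oligodendrocyte markers were highest in saline mouse 10, at 235866 against at most 100196 in any other mouse.

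*Adra2a* (ENSMUSG00000033717) is a single-exon gene on chromosome 19 of mm9 from 54119672 to 54123472. It encodes the α2A receptor, which acts both on noradrenergic terminals and on cortical neurons. The normalized count was 327.6, 336.8 and 385.5 in saline mice 1, 6 and 10, against 650.0, 750.7 and 862.9 in ketamine mice 3, 5 and 9. The groups were well separated, and among ketamine mice the lowest was 3 and the highest 9. Group means were 350.0 ± 31.1 for saline and 754.5 ± 106.5 for ketamine (SD, n = 3). limma gave a log2 fold change of 1.10 with a standard error of 0.158 (unadjusted p = 0.000193, adjusted p = 0.173), which ranked 18 of 16127 by p. The adjusted p was 0.192 by edgeR and 4.7e-06 by DESeq2, which gave a log2 fold change of 1.11. An exact permutation test gave p = 0.1, the smallest that 3 mice against 3 allow. With each mouse left out in turn, the change stayed between 0.999 and 1.203.

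*Adra2c* (ENSMUSG00000045318), the gene of the α2C receptor, also has a single exon and lies on chromosome 5 from 35621215 to 35624410. This receptor is abundant in striatal medium spiny neurons, so the striatal markers stand beside its values here. The normalized count was 500.0, 601.3 and 563.4 in saline mice 1, 6 and 10, against 971.0, 797.8 and 731.5 in ketamine mice 3, 5 and 9. *Adra2c* was thus highest in mouse 3 and lowest among ketamine mice in mouse 9, which was also the order of the striatal sum. limma gave a log2 fold change of 0.58 with a standard error of 0.158 (unadjusted p = 0.00746, adjusted p = 0.549), with an adjusted p of 0.497 by edgeR and 0.121 by DESeq2. In ketamine mouse 9 the striatal sum was 8808, against at most 8667 in saline mice. *Adra2c* in that mouse was above its level in the highest saline mouse. Of the 12 striatal markers, 5 were higher in every ketamine mouse, mouse 9 included, and 0 lower, beside 5.69% and 4.66% of all genes. Olfactory bulb markers were highest in mouse 9, and the part of either tissue in the *Adra2c* values was not tested. Without ketamine mice 3 and 5, an alternative chosen after seeing the data that leaves 1 ketamine mouse, *Adra2c* had a log2 fold change of 0.40 and *Adra2a* one of 1.30. In bulk tissue, a change in the number of cells of a type and a change in RNA per cell cannot be told apart.

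**Figure D1:**
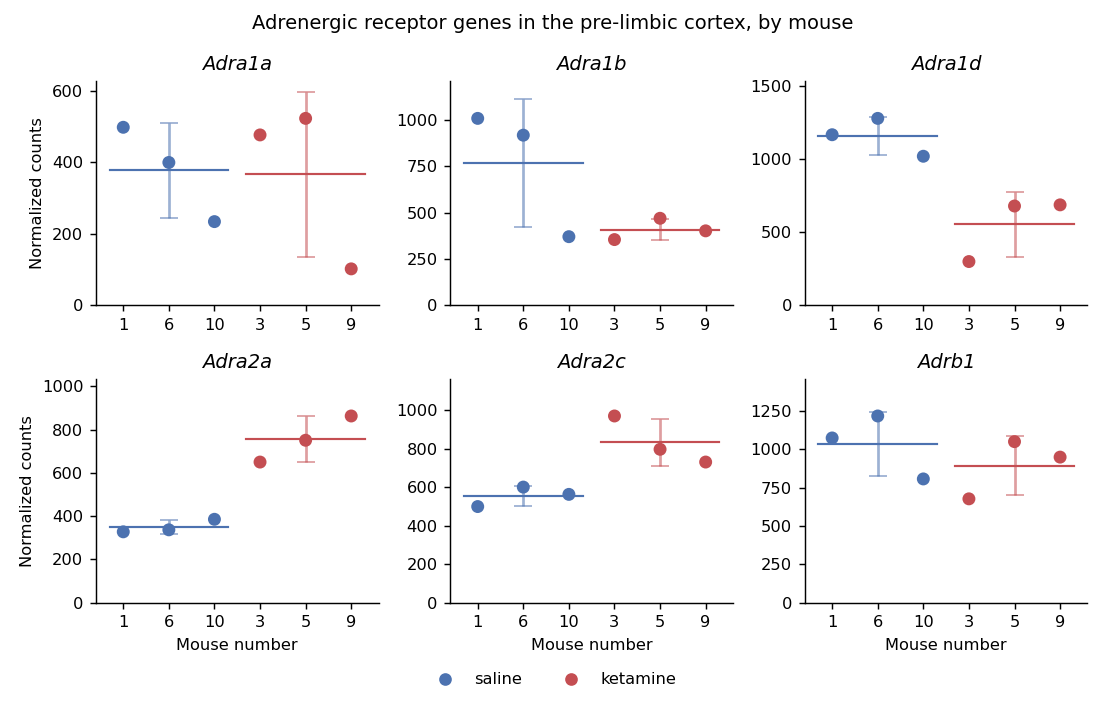
Normalized counts of the 6 adrenergic receptor genes in each mouse (points), with the group mean (horizontal line) and SD (bar, n = 3), for saline (blue) and ketamine (red). The points of *Adra2a* and *Adra2c* are higher in all ketamine mice and those of *Adra1d* lower, while the other 3 genes overlap between the groups.

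*Adra1d* (ENSMUSG00000027335) encodes the α1D receptor and lies on the minus strand of chromosome 2 from 131371586 to 131388021. Saline mice 1, 6 and 10 showed normalized counts of 1168, 1280 and 1020, compared with 298.6, 679.2 and 687.1 for ketamine mice 3, 5 and 9. The groups did not overlap, and ketamine mouse 3 was far below the others. The fit of limma gave a log2 fold change of -1.15 with a standard error of 0.325 (unadjusted p = 0.00903, adjusted p = 0.579), with an adjusted p of 0.586 by edgeR and 0.0892 by DESeq2. It was -0.75 without ketamine mouse 3. A gene on the other strand, *Gm14285*, shares 147 exon bases with *Adra1d*. *Gm14285* ranged from 54.9 to 79.1 in the saline group and from 14.7 to 36.7 in the ketamine group, and the strand setting of the counting is not stated in the sources used here, so reads of the pair cannot be told apart in the shared stretch. The summed markers of cortical excitatory neurons were between 51785 and 77901 for saline, against 37665, 61382 and 50308 for ketamine mice 3, 5 and 9. *Slc17a7* made up most of this sum, and the part of excitatory neuron content in the *Adra1d* values was not tested.

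*Adra1b* (ENSMUSG00000050541), the gene of the α1B receptor, lies on the minus strand of chromosome 11 from 43588108 to 43714712. Saline mice 1, 6 and 10 showed normalized counts of 1010, 918.8 and 370.1, compared with 354.4, 469.4 and 401.6 for ketamine mice 3, 5 and 9. Saline mouse 10 stood with the ketamine mice, far below the other saline mice. The fit of limma gave a log2 fold change of -0.79 with a standard error of 0.374 (unadjusted p = 0.0723, adjusted p = 0.919), with an adjusted p of 0.764 by edgeR and 0.413 by DESeq2. It was -1.25 without saline mouse 10 and -0.52 without saline mouse 1. Saline mouse 10 was also the library with the most oligodendrocyte transcripts, and the part of tissue composition in its *Adra1b* value was not tested.

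*Adra1a* (ENSMUSG00000045875), on chromosome 14 from 67254088 to 67390005, encodes the α1A receptor. Normalized counts were 498.1, 399.6 and 233.9 for saline mice 1, 6 and 10, compared with 476.7, 523.1 and 101.5 for ketamine mice 3, 5 and 9. The spread lay within the groups, with ketamine mouse 9 lowest and ketamine mouse 5 highest of all 6. Its log2 fold change of -0.29 had a standard error of 0.631 (limma, adjusted p = 0.999), and it turned to 0.47 without ketamine mouse 9.

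*Adrb1* (ENSMUSG00000035283) encodes the β1 receptor, the main β receptor of cortical neurons, in a single exon on chromosome 19 from 56796862 to 56799352. Normalized counts were 1073, 1216 and 806.0 for saline mice 1, 6 and 10, compared with 676.4, 1049 and 948.1 for ketamine mice 3, 5 and 9. The groups overlapped over most of their range. Its log2 fold change of -0.21 had a standard error of 0.223 (limma, adjusted p = 0.999), and it was -0.03 without ketamine mouse 3.

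**Figure D2:**
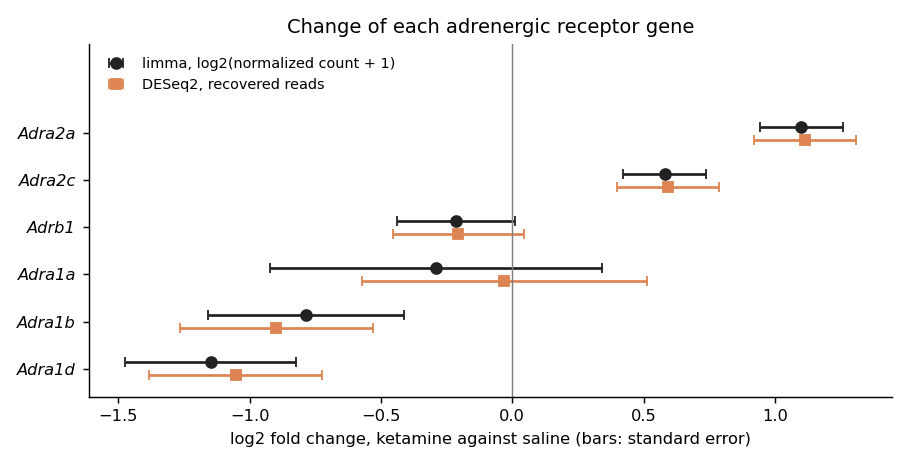
Log2 fold change of each receptor gene, ketamine against saline, by limma on log2(normalized count + 1) (black) and by DESeq2 on recovered reads (orange), with bars of 1 standard error. *Adra2a* and *Adra2c* lie on the higher side and *Adra1d* and *Adra1b* on the lower side by both fits, with *Adra2a* at 1.10 by limma.

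Over the 6 genes, limma called 0, and 2 were higher and 1 lower at an unadjusted p under 0.05, where 3.44% and 2.37% of all genes were. DESeq2 called 1 of the 6, *Adra2a*, as higher and 0 as lower, where it called 0.899% and 0.229% of all genes. The groups did not overlap for 3 of the 6, against 10.3% of all genes. The median log2 fold change was -0.25 over the members and -0.01 over all tested genes. With 6 genes chosen while earlier results of these data were known, these counts are descriptions.

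The members also differed in how steady they were between mice of a group. The SD of log2 values within groups was 0.169 for *Adra2a* and 0.176 for *Adra2c*, below the median of 0.233 over the 7958 genes whose mean was between 100 and 1500 normalized counts. It was 0.318 for *Adrb1*, 0.500 for *Adra1d*, 0.582 for *Adra1b* and 1.02 for *Adra1a*, the last of these above 97.3% of those genes. The SD of *Adra2a* and *Adra2c* was above that of 29.4% and 31.9% of those genes, so their steadiness was not unusual. The α1 genes varied more than most genes of their level.

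To compare levels between genes, normalized counts were divided by the length of all annotated exons of a gene in kb. In saline mice the highest level was that of *Adra1d*, at 608.0 ± 68.5 normalized counts per kb, followed by *Adrb1* at 414.1 ± 83.5 (SD, n = 3). *Adra1b* at 226.5 ± 102.3 and *Adra2c* at 173.6 ± 16.0 overlapped between mice and could not be ordered. *Adra2a* stood at 92.1 ± 8.2 and *Adra1a* at 43.2 ± 15.3 normalized counts per kb, and every other neighbour in this order was separated in all 3 saline mice.

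The order was different in the ketamine mice. *Adrb1* was at 357.7 ± 77.4, *Adra1d* at 291.9 ± 116.8 and *Adra2c* at 260.8 ± 38.7 normalized counts per kb, and these 3 genes overlapped (SD, n = 3). *Adra2a* followed at 198.5 ± 28.0, *Adra1b* at 120.8 ± 17.1 and *Adra1a* at 42.1 ± 26.5. *Adra2a* thus exceeded *Adra1b* in every ketamine mouse, and lay below it in every saline mouse. The exons of *Adra1a* span 8728 bases over 6 transcripts, and its level per kb is understated if a short transcript prevails.

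**Figure D3:**
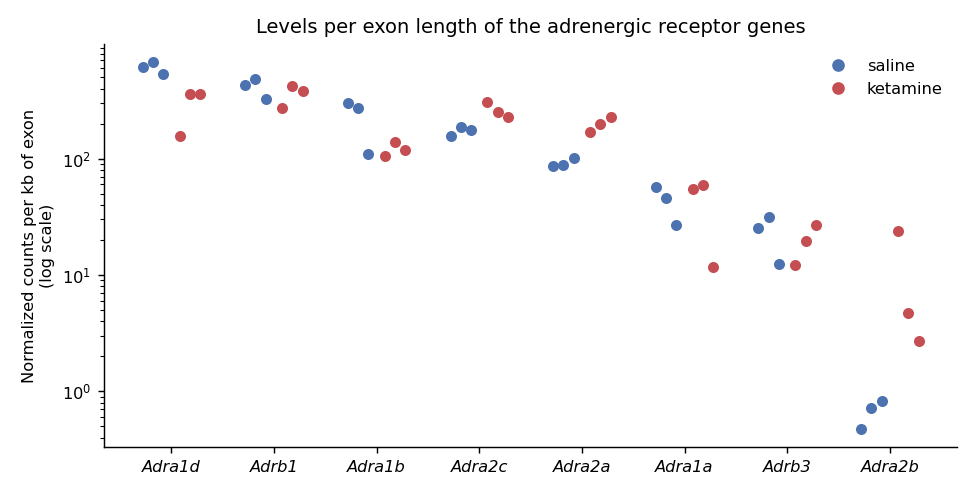
Normalized counts per kb of annotated exon (log scale) of the 6 members, *Adrb3* and *Adra2b* in each saline (blue) and ketamine (red) mouse, ordered by the saline mean. *Adra1d* leads in saline mice at 608.0 and *Adra2b* is lowest in every mouse except ketamine mouse 3.

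The balance between the α1 and α2 genes differed between the groups. Summed per kb, the 3 α1 genes came to 969.9, 990.6 and 672.9 in saline mice 1, 6 and 10, against 316.4, 556.0 and 491.8 for ketamine mice 3, 5 and 9. The sum of *Adra2a* and *Adra2c* was between 242.6 and 277.7 for saline, against between 447.1 and 474.8 for ketamine mice. The ratio of α1 to α2 was 3.997, 3.58 and 2.42 in saline mice 1, 6 and 10, against 0.666, 1.24 and 1.08 for ketamine mice 3, 5 and 9. The α1 genes thus outweighed the α2 genes clearly in each saline mouse, and were close to or below them in each ketamine mouse. The ratio is a description with no test, and saline mouse 10 stood nearest to the ketamine mice.

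Within the subfamilies the pattern was less uniform. *Adra1d* made up between 63.3% and 79.8% of the α1 sum for saline, against between 49.6% and 73.5% for ketamine mice, ranges that overlapped. *Adra2a* to *Adra2c* was between 0.471 and 0.575 in saline mice, against 0.563, 0.791 and 0.992 for ketamine mice 3, 5 and 9. The ratio in ketamine mouse 3, the mouse with the most striatal transcripts, fell within the saline range.

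**Figure D4:**
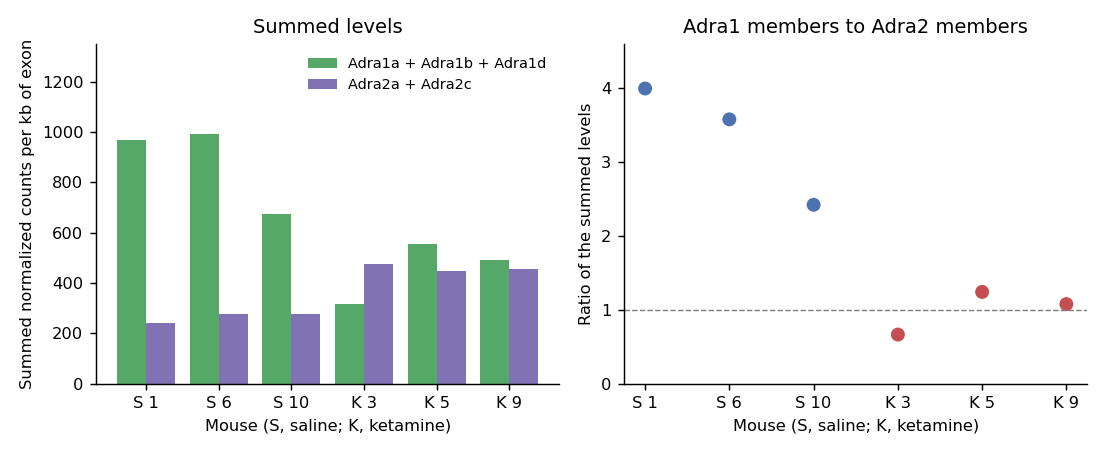
Left, summed normalized counts per kb of exon of the 3 α1 genes (green) and of *Adra2a* with *Adra2c* (purple) in each mouse. Right, their ratio, between 2.42 and 3.997 in saline (blue) and between 0.666 and 1.24 in ketamine mice (red), with a dashed line at a ratio of 1.

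Further receptor genes of the table were low. The normalized count of *Adrb3*, the gene of the β3 receptor, ranged from 36.2 to 91.7 in the saline group and from 35.2 to 77.1 in the ketamine group, and the groups overlapped (adjusted p = 0.999 by limma). *Adra2b*, the gene of the α2B receptor, was at 1.92, 2.90 and 3.29 in saline mice 1, 6 and 10, against 94.95, 18.82 and 10.88 in ketamine mice 3, 5 and 9. It passed the filter only through the ketamine mice, and mouse 3 held most of its counts. Its adjusted p was 0.512 by limma and 0.00996 by DESeq2.

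The supply and clearance of noradrenaline were examined in a list of 14 genes, of which 13 were tested. limma called 0 of them, and 1 was higher and 0 lower at an unadjusted p under 0.05, beside 3.44% and 2.37% of all genes. The median log2 fold change was 0.25. *Dbh*, the enzyme that makes noradrenaline, ranged from 10.6 to 13.2 in the saline group and from 15.7 to 17.2 in the ketamine group (log2 fold change 0.47, adjusted p = 0.999 by limma). *Pnmt*, which makes adrenaline, ranged from 3.8 to 5.8 in the saline group and was at 9.8, 15.1 and 29.0 in ketamine mice 3, 5 and 9 (adjusted p = 0.677 by limma). It was the gene at an unadjusted p under 0.05, and it passed the filter only through the ketamine mice. *Slc6a2*, the noradrenaline transporter, had at most 1.9 normalized counts in any mouse and was not tested. This defining marker of noradrenergic neurons was thus at or near 0.

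Genes of this list that dopamine neurons express, the dopamine transporter among them, varied widely between single mice. *Th*, the rate-limiting enzyme of catecholamine synthesis, was at 39.3, 32.8 and 610.6 in saline mice 1, 6 and 10, against 311.3, 195.7 and 1687 in ketamine mice 3, 5 and 9. *Slc18a2*, the vesicular monoamine transporter, was at 811.5 and *Slc6a3*, the dopamine transporter, at 1821 in saline mouse 10, against at most 87.1 and 101.5 in any other mouse. *Ddc*, which decarboxylates L-DOPA, was also highest in saline mouse 10, at 1108 against at most 420.9. *Gch1*, which makes the cofactor of *Th*, lay between 25.4 and 86.8 normalized counts over all mice.

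*Maoa* and *Maob*, which oxidise monoamines, had log2 fold changes of 0.14 and 0.01 (adjusted p = 0.999 by limma for both). *Slc22a3* and *Slc29a4*, transporters of low affinity for monoamines, had log2 fold changes of 0.58 and 0.25, and *Sult1a1*, a sulphotransferase, 0.05 (adjusted p = 0.999 by limma for each).

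The signalling arms below the receptors were represented by lists of 22 genes for Gq, 24 for Gi/o and 22 for Gs, with 15 genes of desensitisation and scaffolding. limma called 0 genes in each list. In the Gq list of the α1 receptors, 6 of 21 tested genes had a log2 fold change above 0 and 15 below, with a median of -0.24. *Trpc6*, a cation channel opened downstream of Gq, ranged from 351.4 to 532.6 in the saline group and was at 128.2, 262.5 and 201.2 in ketamine mice 3, 5 and 9 (log2 fold change -1.24, adjusted p = 0.402 by limma, 0.0161 by DESeq2). *Dgkz*, which removes diacylglycerol, had a log2 fold change of -0.61, and *Rgs2*, which quenches Gq, 0.38 (adjusted p = 0.788 and 0.811 by limma). *Trpc6* was the only gene of this list that DESeq2 called, beside 1.13% of all genes. In this list 2 genes were higher in every ketamine mouse and 2, *Trpc6* among them, lower, beside 5.69% and 4.66% of all genes.

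In the Gi/o list of the α2 receptors, 10 of 24 genes were above 0 and 14 below, with a median of -0.09. The smallest p-values were those of G protein γ subunits. *Gng4* ranged from 881.8 to 1345 in the saline group and was at 2787, 2656 and 7543 in ketamine mice 3, 5 and 9 (log2 fold change 1.74, adjusted p = 0.401 by limma, 0.00089 by DESeq2). Among ketamine mice, but not among saline mice, this was the order of the summed olfactory bulb markers. The part of that tissue in the *Gng4* values was not tested. *Gng7*, a γ subunit abundant in striatum, had 12092 and 7421 in ketamine mice 3 and 5 but 2567 in mouse 9, the order of the striatal markers. *Gng2* was lower in every ketamine mouse, at between 3564 and 4573 normalized counts against between 5617 and 6146 (adjusted p = 0.579 by limma).

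In the Gs list of the β receptors, 11 of 22 genes were above 0 and 11 below, with a median of -0.00. *Adcy1*, a calcium-stimulated adenylyl cyclase, and *Rapgef4*, a cAMP-gated exchange factor, had log2 fold changes of -1.08 and -0.65, and *Rapgef3*, a related factor, 0.31 (adjusted p = 0.784, 0.768 and 0.986 by limma). In the list of desensitisation and scaffolding, 2 of 15 genes were above 0 and 13 below, with a median of -0.13. *Adrbk1*, the receptor kinase also called GRK2, ranged from 6816 to 8025 in the saline group and from 5605 to 6771 in the ketamine group (log2 fold change -0.33, adjusted p = 0.865 by limma). *Magi2*, a scaffold, and *Nsf*, which acts in membrane trafficking, had log2 fold changes of -0.41 and -0.28 (adjusted p = 0.999 by limma for both).

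The genes whose log2 values followed each member most closely over the 6 mice were sought among 12408 genes that averaged 100 normalized counts or more. The values share the libraries, and Pearson's r is given as a description. For *Adra2a* they were *Ndnf* (listed as A930038C07Rik, r = 0.997), which marks a class of cortical interneurons, *Frmd7* (0.989) and *Prokr2* (0.988), a receptor for prokineticin. *Frmd7* had at most 37.3 normalized counts in a saline mouse and 219.3, 365.0 and 1289 in ketamine mice 3, 5 and 9. *Prokr2* ranged from 27.8 to 38.4 in the saline group and from 169.3 to 257.4 in the ketamine group. Both passed the minimum of 100 only through the ketamine mice, so their r largely restates the difference between the groups. For *Adra2c* they were *Rhbdl3* (0.989), *H13* (0.986) and *Tchp* (0.984).

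For *Adra1d* they were *Il17ra* (0.997), A430046D13Rik (0.994) and *Deaf1* (0.989), and for *Adra1b* *Flot2* (0.998), *Rad23b* (0.997) and *Rspo2* (0.995). *Rspo2*, a secreted activator of Wnt signalling, shared the low value of saline mouse 10, at 222.9 against 869.8 and 832.9 normalized counts in saline mice 1 and 6. For *Adra1a* they were *Kcna3* (0.999), a potassium channel that was also lowest in ketamine mouse 9, *Plekhm3* (0.998) and *C2cd3* (0.997). For *Adrb1* they were *Smoc2* (0.988), *Ncstn* (0.986) and *Grk6* (0.984), a kinase of the desensitisation list. No gene was among the leading 3 of more than 1 receptor gene.

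Markers of other cell types moved with the groups in part. Of the 10 olfactory bulb markers, 8 were higher in every ketamine mouse, beside 5.69% of all genes tested, with sums between 2069 and 2743 for saline, against between 4867 and 22490 for ketamine mice. *Adra2a* and this sum were both highest in ketamine mouse 9. Of ketamine mice 3 and 5, *Adra2a* was higher in mouse 5 and the sum in mouse 3. Single markers of the list did not all share the order of the sum. *Sp8* was at 51.7, 66.6 and 84.6 in saline mice 1, 6 and 10. It was at 236.9, 335.9 and 1423 in ketamine mice 3, 5 and 9, the order of *Adra2a* over all 6 mice. Every other marker of the list was higher in mouse 3 than in mouse 5. Of the 12 striatal markers, 5 were higher in every ketamine mouse, beside the same 5.69%. The summed markers of GABAergic interneurons were between 34218 and 34910 for saline, against 47536, 35790 and 48192 for ketamine mice 3, 5 and 9. The list did not move one way, since 4 of its 10 markers had a log2 fold change above 0 and 6 below, with a median of -0.09. Of the 10, 4 were higher in every ketamine mouse and 2 lower, beside 5.69% and 4.66% of all genes tested. Those higher were *Gad1*, *Gad2* and *Slc32a1*, which make and package GABA, and *Adarb2* (554.9 to 717.1 for saline, 775.9 to 1025 for ketamine). Those lower were *Pvalb* (892.7 to 2261 for saline, 516.5 to 669.9 for ketamine) and *Sst* (3695 to 4227 and 3229 to 3568). The other markers of this list overlapped between the groups. No marker of these lists was at 0 in every mouse. Their part in the values of the receptor genes was not tested.

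For the other cell types the sums overlapped between the groups. The summed markers ranged from 4621 to 5304 for endothelial cells, from 5622 to 6904 for mural cells, from 8671 to 11065 for microglia and from 98680 to 134756 for astrocytes over the 6 mice. Choroid plexus markers were low, at between 69.9 and 754.7.

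**Figure D5:**
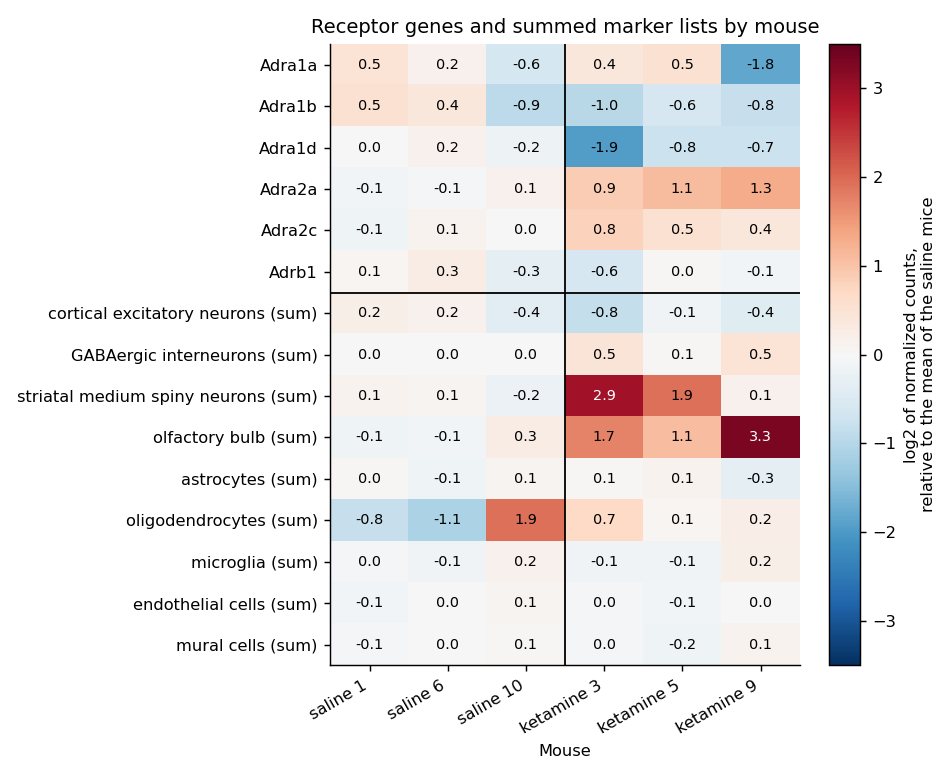
Log2 of normalized counts set against the saline mean, for the 6 receptor genes (upper rows) and the summed markers of 9 cell types or regions (lower rows), in each mouse. Striatal markers stand out in ketamine mice 3 and 5 and oligodendrocyte markers in saline mouse 10. Olfactory bulb markers lie above the saline mean in all 3 ketamine mice, at 1.7, 1.1 and 3.3 in mice 3, 5 and 9. *Adra2a* and *Adra2c* also lie above the saline mean in all 3.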

How the data were processed

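Each of 6 mice gave a single RNA Seq library of PLc. According to the submitters' processing notes and the paper's methods, paired-end reads were aligned to mm9 with TopHat2 (2.0.11), counted per gene with HTSeq and analysed with DESeq2. The annotation and the strand setting are not given in the sources used here. The deposited unit is a signal: the authors scaled the counts of each library by its size factor. Dividing by the step between low values gave whole reads for 100.0% of values, within 0.02 normalized counts. Condition and mouse number came from the labels.

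Log2(normalized count + 1) was compared with limma 3.58.1 (R 4.3.3, trended prior variance) over 16127 genes that averaged 10 normalized counts or more. Tests were two-sided, with adjustment over all tested genes. edgeR 4.0.16 and DESeq2 1.42.0 were run on the recovered reads. Single genes were also compared by an exact permutation test. GENCODE M1 (mm9) gave exon lengths and coordinates. Lists were matched on symbols and older symbols.

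The members and lists were chosen with earlier results of these data known. The genes named are the members, other receptor genes of the table, the noradrenaline list, the 3 genes of each other pathway list with the smallest p, and the 3 genes most like each member. *Slc17a7*, *Gad1*, *Gad2*, *Slc32a1*, *Adarb2*, *Pvalb*, *Sst*, *Sp8*, *Adcy5*, *Itpr2*, *Rgs4* and *Gm14285* were added after their values were seen. Some genes that this rule covers are not reported here.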

Additional observations from a re-analysis of the deposited data

How the results depend on the processing

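Pseudocounts of 0.1 and 5, no filter, a filter of 100 normalized counts, recomputed size factors, upper-quartile scaling, no trend and edgeR left the direction of all 6 receptor genes, with no gene called over the whole table. DESeq2 called 182 genes, among them *Adra2a* (log2 fold change 1.11), and 2 genes of the pathway lists, *Gng4* and *Trpc6*. With each mouse left out in turn, the count of genes called lay between 0 and 1, and that of the pathway lists stayed at 0. The log2 fold change then ranged from 0.999 to 1.203 for *Adra2a*, from 0.46 to 0.67 for *Adra2c*, from -1.35 to -0.75 for *Adra1d*, from -1.25 to -0.52 for *Adra1b*, from -0.71 to 0.47 for *Adra1a* and from -0.38 to -0.03 for *Adrb1*. *Adra1a* turned higher without ketamine mouse 9, at 0.47. Without both saline mouse 10 and ketamine mouse 9, limma called 587 of 16127 genes. This alternative was chosen after seeing the data and leaves the ketamine mice with raised striatal markers. With it, limma called 7 genes of the pathway lists, which hold 13, 21, 24, 22 and 15 tested genes. Of these 7, *Gng4*, *Gng7*, *Adcy5*, *Th*, *Slc6a3* and *Itpr2* were higher and *Rgs4* lower. *Adra2a* (1.07, adjusted p = 0.0155 by limma) and *Adra1b* (-1.24, adjusted p = 0.0187 by limma) were then called, and *Adra1a* was at 0.16. The cause was not tested. Without ketamine mice 3 and 5, limma called 0 genes, but this leaves 1 ketamine mouse, which is assumed to vary like the 3 saline mice, and the lack of calls says nothing about stability. No paired analysis was possible because the mouse numbers of the groups differ. With 3 mice in a group, limma and edgeR left changes such as that of *Adra2c* uncalled, which does not show that they are absent.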
